A study of Mus musculus with 2 samples.

Results

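The RGK proteins are a small branch of the Ras-like GTPases with 4 genes in the mouse, *Gem*, *Rrad* (Rad), *Rem1* and *Rem2*. They were picked out of the 55573 genes of the deposited tables by matching these symbols to Ensembl identifiers, and all 4 were listed. The family was chosen by its read counts and fold changes in these same libraries, above all those of *Gem* and *Rrad*, which are therefore given as a description. The values came from RNA-seq of mesenteric arteries, the resistance vessels that feed the intestine, of wild type C57BL/6 mice aged 10 weeks. One library was made from arteries in 5 mM K+ (control) and one from arteries in 60 mM K+, which depolarizes the smooth muscle, with 60 min given for both and tissue of 2 mice pooled into each. Tetrodotoxin, which blocks nerve sodium channels, was in all solutions. The study compared them to ask which genes membrane depolarization induces. The libraries held 10480918 and 11289598 reads on genes. The supplementary methods of the study describe control tissue taken from the distal side before the rest was perfused with 60 mM K+. The step just before was incubation without perfusion. The labels give the same time for both, and the main text describes both as perfused. Segment, perfusion and time in solution therefore cannot be told apart from K+. A single library stands for each condition, so that the spread between animals is unknown and no test of the conditions was run. All intervals below are 95% intervals that cover counting error only.

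RGK proteins bind the beta subunits of high voltage-activated Ca2+ channels and, when their amount rises in a cell, reduce the current through these channels, which include Cav1.2, the main Ca2+ entry route of vascular smooth muscle. In heart muscle, Rad is the protein whose phosphorylation lets adrenergic signals raise the Cav1.2 current. Gem and Rad also act on the cytoskeleton, and Gem was first known as a gene switched on soon after cells are stimulated. Unlike most Ras proteins, RGK proteins do not carry the usual C-terminal lipid anchor.

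The 4 genes are related but distinct in sequence, which matters for whether their reads can be told apart. The stretches below show the region around the longest run of bases that *Rrad* and *Rem1* share, with the best ungapped match in the other members. Capitals mark the 32 of 60 bases that are the same in all 4 genes. Each stretch is coding sequence in exon 5, written 5′ to 3′ on the strand of the gene from the GENCODE vM1 transcripts of NCBIM37 (mm9).
Gem: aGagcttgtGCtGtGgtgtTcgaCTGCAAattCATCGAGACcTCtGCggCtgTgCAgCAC
Rrad: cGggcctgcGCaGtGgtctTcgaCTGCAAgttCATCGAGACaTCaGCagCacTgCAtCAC
Rem1: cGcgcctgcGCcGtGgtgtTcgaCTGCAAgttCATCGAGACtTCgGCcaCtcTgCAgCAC
Rem2: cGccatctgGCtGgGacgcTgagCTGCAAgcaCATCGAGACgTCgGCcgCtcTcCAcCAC

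The stretch lies at chr4:11640628-11640687 in *Gem* (plus strand), chr8:107152564-107152623 in *Rrad* (minus strand), chr2:152460187-152460246 in *Rem1* (plus strand) and chr14:55098292-55098351 in *Rem2* (plus strand). Against *Rrad*, 51 of 60 bases were identical in *Rem1*, 47 in *Gem* and 36 in *Rem2*. Even in the most similar pair, the longest run of identical bases between annotated protein-coding transcripts was 23 bases, for *Rrad* and *Rem1*. It was 20 bases for *Gem* and *Rrad*, and 11 bases for *Gem* and *Rem2*. None of the 50-base windows of these transcripts (2055 for *Gem*, 1526 for *Rrad*, 1659 for *Rem1* and 2266 for *Rem2*) occurred in a protein-coding transcript of another gene. The sources used here do not state the read length. No other gene of this annotation overlaps any of the 4 on either strand.

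*Gem* spans chromosome 4 from 11631604 to 11641899. The control library held 1731 *Gem* reads and the depolarized library 5448. After scaling by the trimmed mean of M-values (TMM), a library factor from edgeR, its level per 1000000 reads (CPM) was 154 CPM (counting interval 146 to 161) in the control and 519 CPM (505 to 533) in the depolarized arteries. The depolarized library was therefore the higher one, and the intervals lay far apart. The log2(fold-change) of 60 mM over 5 mM K+ was 1.76 (1.68 to 1.83), a 3.38-fold difference.

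*Rrad*, which encodes the Rad protein, lies on chromosome 8 from 107151966 to 107155221. Its reads numbered 3046 in the control and 6493 after depolarization, or 270 CPM (261 to 280) and 618 CPM (603 to 633). Here too the depolarized library was higher without overlap of the counting intervals. The log2(fold-change) was 1.19 (1.13 to 1.26), a 2.29-fold difference. This value depended on the scaling: with total counts in place of TMM, a change that lowers every log2(fold-change) by 0.21, *Rrad* stood at 0.98 and *Gem* at 1.55.

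*Rem1*, also called Rem, lies on chromosome 2 from 152452687 to 152460934. It had 108 reads in the control and 102 reads in the depolarized library, equal to 9.59 CPM (7.86 to 11.6) and 9.71 CPM (7.92 to 11.8). The libraries overlapped almost completely. Its log2(fold-change) of 0.02 (-0.39 to 0.42) changed sign with total counts (-0.19) and upper-quartile scaling (-0.02), and a difference was not detectable at this depth.

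*Rem2*, on chromosome 14 from 55094937 to 55099271, had 0 reads in the control and 4 in the depolarized library. It was the member at the limit of detection, since a count of 0 allows up to 3 reads, or 0.266 CPM, in the control library (the upper end of the exact interval used above, which is the wider limit, is 0.327 CPM), and the depolarized level was 0.381 CPM (0.104 to 0.975). Set against that floor of 3 reads, the ratio was 1.43. The lower end of its counting interval was a log2(fold-change) of -0.50, so that no difference was detectable.

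**Figure D1:**
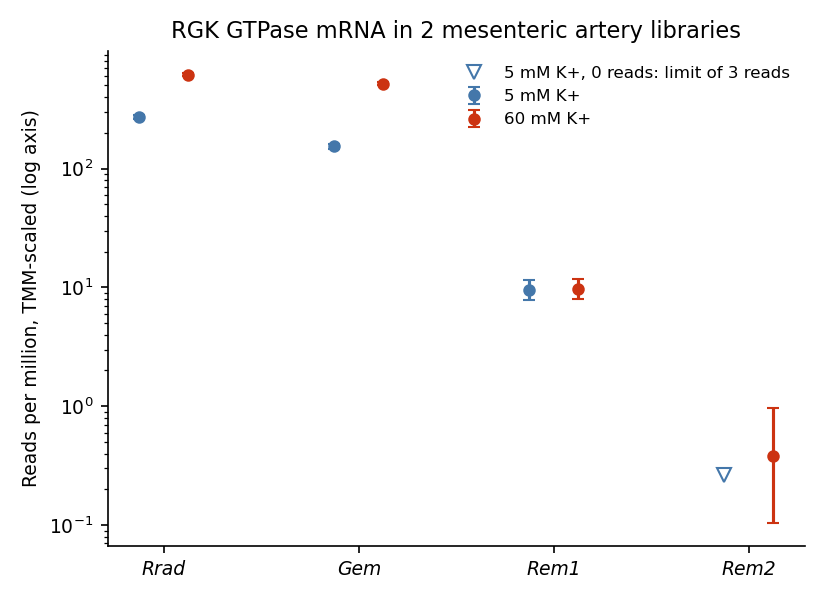
TMM-scaled CPM (log axis) of the 4 RGK genes in the 5 mM K+ (blue) and 60 mM K+ (red) library, with 95% exact Poisson intervals and 1 library per point. *Gem* goes from 154 to 519 CPM and *Rrad* from 270 to 618 CPM, *Rem1* stays near 10 CPM in both, and the open triangle is the limit that 0 reads of *Rem2* allow.

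Of the 4 genes, 3 passed a minimum of 10 reads summed over the libraries, and 2 of these, *Gem* and *Rrad*, had a log2(fold-change) above 1, the study's fold threshold. Over all 14829 genes with at least 10 reads, 5.54% lay above 1 and 5.86% below -1, around a median of -0.0047. The whole counting interval lay above 1 for *Gem* and *Rrad* and for 1.77% of these genes. Among the 10738 genes with at least 100 reads, 3.06% lay above 1, 0.81% below -1 and 1.88% above 1 with their whole interval. *Gem* ranked 262 and *Rrad* ranked 613 of the 14829 genes by log2(fold-change). These ranks use the values that chose the family, and nothing is read from them.

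**Figure D2:**
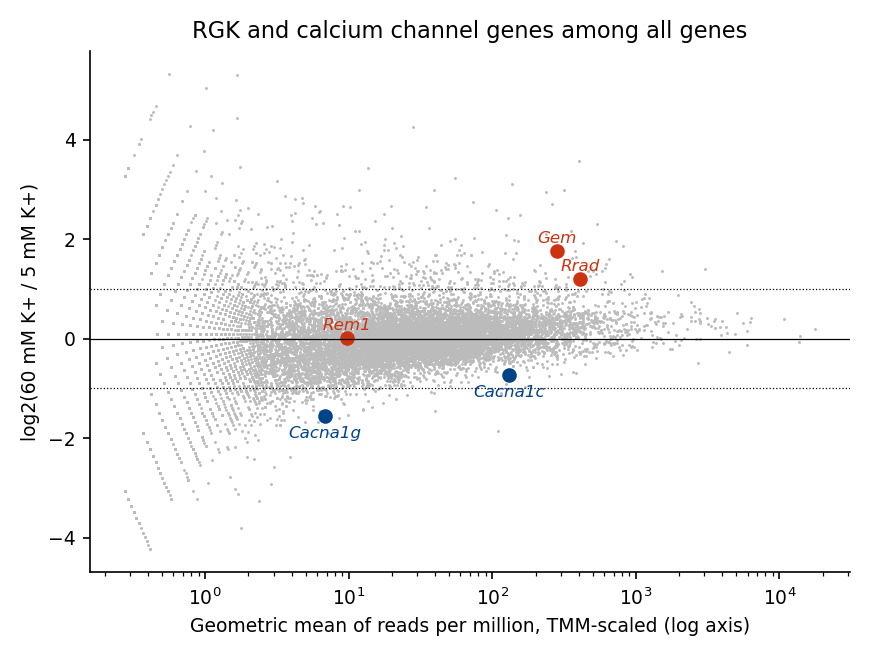
log2(fold-change) of 60 mM over 5 mM K+ against the geometric mean of TMM-scaled CPM (log axis) for genes with 10 or more reads in all and 1 or more in each library (grey), with dotted lines at 1 and -1. *Gem* (1.76) and *Rrad* (1.19) lie above the upper line among abundant genes, *Rem1* (0.02) lies on the zero line, and the channel genes *Cacna1c* (-0.72) and *Cacna1g* (-1.55) lie below it.

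The difference between *Gem* and *Rrad* does not depend on how the libraries are scaled, because both genes were counted in the same libraries. The log2(fold-change) of *Gem* exceeded that of *Rrad* by 0.56 (counting interval 0.46 to 0.66), and that of *Rem1* by 1.74 (1.34 to 2.13). *Rrad* exceeded *Rem1* by 1.17 (0.78 to 1.57). These differences use the values that chose the family and are a description. How much of this separation animals would show on their own could not be measured with 1 library per condition.

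The order of levels was different from the order of change. Levels of different genes are compared per length, in the deposited FPKM (fragments per kilobase of gene and per 1000000 reads, scaled by total counts). *Rrad* was the most abundant member in both libraries, at 289 FPKM in 5 mM K+ and 572 FPKM in 60 mM K+. *Gem* followed at 82.6 and 241 FPKM, then *Rem1* at 8.97 and 7.86 FPKM, and *Rem2* at 0.342 FPKM in the depolarized library. *Rrad* ranked 334 among all genes by FPKM in the control and 167 in the depolarized library, while *Gem* moved from rank 1303 to rank 441. *Rrad* made up 75.9% of the summed RGK FPKM in the control and 69.6% in the depolarized library. The share of *Gem* was 21.7% and 29.4%, and that of *Rem1* was 2.36% and 0.958%. The FPKM of *Rrad* was 3.50 times that of *Gem* in the control and 2.37 times in the depolarized library. The gene length behind these FPKM values was 2000 bases for *Gem* and 1006 bases for *Rrad*, whereas the exons of GENCODE vM1 cover 2104 and 1575 bases. The mismatch was wider for *Rem1*, with 1149 against 2156 bases, and for *Rem2*, with 1037 against 2254 bases. With the annotated lengths the levels would be 78.5 and 229 for *Gem*, 185 and 365 for *Rrad*, 4.78 and 4.19 for *Rem1*, and 0.157 for *Rem2* in the depolarized library. The ratio of *Rrad* to *Gem* was then 2.35 and 1.59, and the order of the members was the same in both libraries.

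The targets of RGK proteins are the high voltage-activated Ca2+ channels. The pore subunit with by far the most reads among 7 was *Cacna1c*, which encodes Cav1.2. It had 1890 reads in the control and 1066 reads in the depolarized library, or 168 and 102 CPM, so its level was lower in 60 mM K+ while those of *Gem* and *Rrad* were higher. Its log2(fold-change) was -0.72 (-0.83 to -0.62). *Cacna1a*, the pore of P/Q-type channels, had 142 and 157 reads, with an interval that included 0 (-0.09 to 0.58). *Cacna1d*, which encodes Cav1.3, had 13 and 3 reads, and its log2(fold-change) of -2.01 had an interval from -4.47 to -0.15. The other 4 pore genes had at most 5 reads, of which *Cacna1s* and *Cacna1f* had 0 in both libraries. Of the 3 pore genes with at least 10 reads, 0 were above 1 and 1, *Cacna1d*, was below -1. The shares of all genes with at least 10 reads were 5.54% above 1 and 5.86% below -1.

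The beta subunits, which RGK proteins bind, had fewer reads in the depolarized library and a log2(fold-change) below 0 in all 4 cases. The share of all genes with at least 10 reads above 0 was 49.6%. With TMM, the counting interval excluded 0 for *Cacnb2* alone. Total counts lower every log2(fold-change) by 0.21, which would also bring the upper end for *Cacnb3* (0.02) below 0. *Cacnb2*, at 380 and 295 reads, was at -0.26 (-0.49 to -0.04). *Cacnb3* had 372 and 301 reads (-0.20, interval -0.43 to 0.02), and *Cacnb1* had 140 and 123 reads (-0.09, interval -0.45 to 0.27). *Cacnb4* was barely detected, with 12 and 6 reads. All 4 beta genes had at least 10 reads and 0 passed 1 or -1, with a median of -0.23. Of the alpha2delta subunits, which help carry the pore to the membrane, 2 of 4 had at least 10 reads and 0 passed the threshold. *Cacna2d1*, at 1012 and 963 reads, was at 0.03 (-0.10 to 0.16), and this sign and that of the median (0.07) turned with total counts.

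T-type channels open at lower voltage and do not need a beta subunit. *Cacna1h* (Cav3.2), at 666 and 365 reads, was at -0.77 (-0.95 to -0.58). *Cacna1g* (Cav3.1), at 132 and 42 reads, was at -1.55 (-2.09 to -1.04). Both were lower in the depolarized library, and 1 of the 2 measured T-type genes was below -1. Of all genes with at least 10 reads, 49.6% were above 0 and 5.86% were below -1. Of those with at least 100 reads, 0.81% were below -1.

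**Figure D3:**
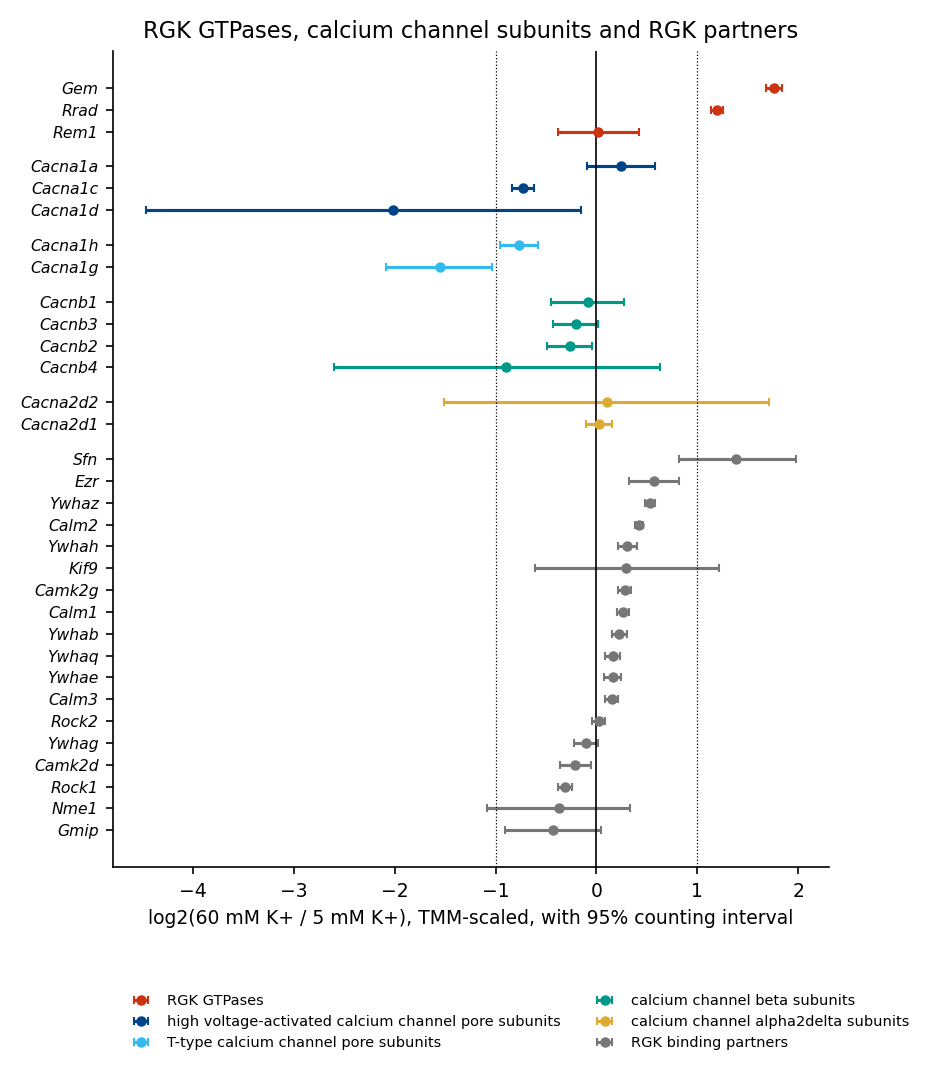
log2(fold-change) of 60 mM over 5 mM K+ (points) with 95% counting intervals (bars) for RGK genes, calcium channel subunits and RGK binding partners with at least 10 reads, 1 library per condition, with dotted lines at 1 and -1. *Gem* and *Rrad* lie right of 1, while *Cacna1c*, *Cacna1h*, *Cacna1g* and *Cacna1d* (-2.01) lie left of 0 and *Cacna1a* (0.25) right of it. The beta subunits *Cacnb1*, *Cacnb2* and *Cacnb3* lie between -0.26 and -0.09, and *Cacnb4*, with 18 reads in all, at -0.90.

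The amount of RGK relative to channel transcripts within a library was larger in 60 mM K+. The summed RGK FPKM was 380 in the control and 821 in the depolarized library, and the summed FPKM of the 4 beta subunits was 46.9 and 35.1. The ratio of RGK to beta subunit FPKM was 8.10 in 5 mM K+ and 23.4 in 60 mM K+. Against *Cacna1c* alone, at 27.2 and 14.3 FPKM, the ratio was 14.0 and 57.6. Without length scaling these ratios were smaller, at 5.40 and 16.6 reads per beta subunit read and at 2.58 and 11.3 reads per *Cacna1c* read. These are ratios of RNA, and protein amounts were not measured here. The log2(fold-change) of *Gem* exceeded that of *Cacna1c* by 2.48 (2.35 to 2.61) and that of *Rrad* exceeded it by 1.92 (1.79 to 2.04), independent of the scaling. Against *Cacnb2* the excess was 2.02 (1.79 to 2.25) for *Gem* and 1.46 (1.23 to 1.69) for *Rrad*. *Rem1* exceeded *Cacna1c* by 0.74 (0.34 to 1.15) and did not separate from *Cacnb2* (0.28, interval -0.17 to 0.73). The ratios and differences of this paragraph use the values that chose the family and are a description.

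**Figure D4:**
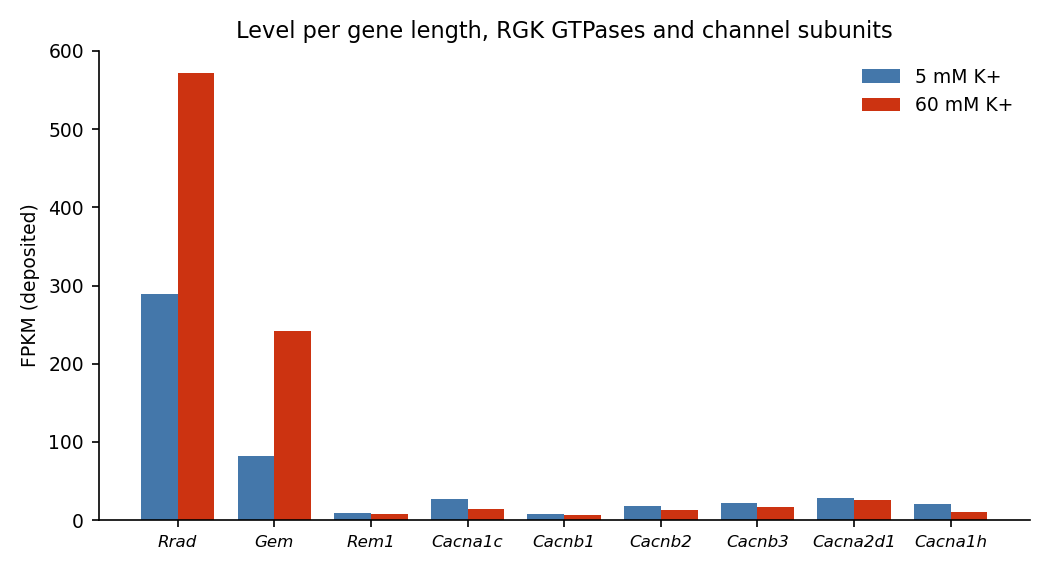
Deposited FPKM (linear axis from 0) of 3 RGK genes and 6 calcium channel subunit genes in the 5 mM K+ (blue) and 60 mM K+ (red) library, 1 library per bar. The *Rrad* bars (289 and 572 FPKM) and *Gem* bars (82.6 and 241 FPKM) stand above the bars of the channel subunits, the tallest of which is *Cacna2d1* at 28.7 and 25.3 FPKM.

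RGK proteins also bind calmodulin, the phosphoserine-binding Ywha adaptor proteins and several other partners. Of 18 listed partners, all had at least 10 reads, 1 was above 1 and 0 were below -1. Since 5.54% of all genes with at least 10 reads were above 1, 1 of 18 is close to that share. Their median was 0.19, which became -0.016 with total counts. The partner above 1 was *Sfn*, an adaptor of the Ywha family, whose 37 and 90 reads gave 1.38 (0.82 to 1.98). The most abundant partners per length were *Calm2* (calmodulin) at 903 and 1047 FPKM, *Ywhaz* at 421 and 526 FPKM and *Calm3* at 411 and 395 FPKM. *Calm2* had a log2(fold-change) of 0.42 (0.38 to 0.47), *Ywhaz* of 0.53 (0.48 to 0.58) and *Calm3* of 0.15 (0.09 to 0.21), the last of which is negative with total counts.

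Among 30 other Ras-like GTPases, 27 had at least 10 reads, 1 was above 1 and 0 were below -1. A count of 1 in 27 does not exceed the 5.54% of all genes with at least 10 reads above 1. Their median was 0.13 and turned to -0.078 with total counts. The gene above 1 was *Rasl10a*, with 12 and 23 reads and an interval that included 0 (1.04, from -0.03 to 2.18). The most abundant were *Rras*, which acts in integrin adhesion, at 798 and 928 FPKM, the steroid-inducible *Rasd1* at 321 and 324 FPKM, and *Rasl12* at 210 and 228 FPKM. The log2(fold-change) was 0.43 for *Rras*, 0.22 for *Rasd1* and 0.33 for *Rasl12*. Just under the threshold, and named after its value was seen, was *Rasl10b* with 913 and 1657 reads (0.96, from 0.84 to 1.08). In the control library *Rrad* (289 FPKM) was thus below *Rasd1* per length, and in the depolarized library (572 FPKM) it was above.

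Activity-regulated early genes, which Ca2+ entry and many other stimuli switch on, were listed for comparison because *Gem* is one of the genes known to respond early. All 24 had at least 10 reads, 4 were above 1 and 0 below -1, with a median of 0.69. The shares of all genes above 1 were 5.54%, and 3.06% with at least 100 reads. Of the 24, 20 were above 0, compared with 49.6% of all genes with at least 10 reads and 52.6% of those with at least 100. Those above 1 were *Fosl1* at 1.82 (1.08 to 2.62, from 20 and 66 reads), *Arc* at 1.68 (1.51 to 1.85, from 378 and 1129 reads), *Ier3* at 1.25 (1.18 to 1.32) and *Jund* at 1.07 (0.98 to 1.17). *Gem*, at 1.76, lay between *Fosl1* and *Arc*, and *Rrad*, at 1.19, between *Ier3* and *Jund*. The most abundant early genes were already high in the control: *Fos* stood at 2681 and 3099 FPKM, *Nr4a1* at 2679 and 2731 FPKM and *Junb* at 1893 and 2601 FPKM. Their log2(fold-change) was 0.42, 0.24 and 0.67, below that of *Gem* and *Rrad*.

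The genes nearest to each member in level and change were found by the distance in log2 CPM over the 2 libraries. For *Gem* these were *Bag3* (2025 and 4313 reads, distance 0.41), *Tnfaip2* (1281 and 5168 reads, 0.44) and *Hbegf* (2139 and 4227 reads, 0.48). For *Rrad* they were *Atf4* (2764 and 6074 reads, 0.17), *Maff* (3215 and 5828 reads, 0.17) and *Mafk* (3602 and 6571 reads, 0.24). For *Rem1* they were *Gpr30* (110 and 102 reads, 0.03), *Txnrd2* (109 and 99 reads, 0.05) and *Tsfm* (111 and 100 reads, 0.05). *Gem* had no neighbor as close as those of *Rrad* and *Rem1*. Such a distance depends on how many genes share a level and change, and the change of *Gem* helped choose the family. Nothing is read from this difference in distance. With 2 libraries, the likeness of neighbors rests on 2 values per gene.

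In the promoter table of RefSeq (GRCm38.p6; from 250 bases before to 50 bases after each start), *Rem1* and *Rem2* were found, and *Gem* and *Rrad* were not. Motifs were searched on both strands. The full cAMP response element (CRE) TGACGTCA was in 1.79% of 32851 windows and in neither *Rem1* nor *Rem2*. The shorter TGACG, which the full CRE contains, was in 20.8% of windows and occurred once in *Rem1*, on the opposite strand within the first 50 bases of the transcript, and not in *Rem2*. AP-1 sites (TGANTCA, in 7.81% of windows), CArG boxes (1.63%) and NF-kB sites (4.50%) matched in neither.

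In whole arteries, fewer cells of a type and less RNA per cell cannot be told apart. Smooth muscle genes were abundant, with *Acta2* at 12480 and 12366 FPKM. The 8 smooth muscle markers had a median log2(fold-change) of 0.12 and a range of -0.53 to 0.40, with a summed level of 19642 and 19237 FPKM, and this median is negative with total counts. The 8 endothelial markers had a median of 0.41 (from -1.10 for *Kdr* to 0.83 for *Cdh5*), with 1434 and 1714 FPKM. Of the 8, 7 were above 0, compared with 49.6% of all genes with at least 10 reads. The medians were -0.20 for macrophage, -0.29 for fibroblast, -0.24 for Schwann cell and -0.90 for adipocyte markers. Striated muscle is a tissue in which *Rrad* is known to be abundant, and its 8 markers summed to 58.7 and 49.5 FPKM, with a median of 0.31 over the 6 measured. Most of this sum was *Acta1* at 40.6 and 35.4 FPKM, followed by *Actc1* at 9.46 and 3.49 FPKM, while the myosin genes *Myh4* and *Myh7* had 0 reads in both libraries. Of the 6 measured, 5 were above 0, compared with 49.6% of all genes with at least 10 reads. *Ckm* was at 0.88 (0.06 to 1.73, from 21 and 36 reads). *Tnnt2* (0.50), *Tnnt3* (0.34), *Myh6* (0.27) and *Acta1* (0.01) had intervals that included 0, and *Actc1* was at -1.23. Lymphocyte markers summed to 0.933 and 0.344 FPKM. Pancreas markers summed to 10.3 and 35.2 FPKM, with a median of 3.45 over the 4 measured. Of these 4, 3 were above 1, compared with 5.54% of all genes with at least 10 reads. The highest was *Pnlip*, at 2 and 61 reads (5.03, from 3.12 to 8.11), so the libraries also differed in RNA of pancreas genes. *Gem* exceeded *Pecam1*, an endothelial gene, by 1.25 (1.17 to 1.34) and *Acta2* by 1.56 (1.48 to 1.64) in log2(fold-change), and for *Rrad* these values were 0.69 (0.62 to 0.76) and 1.00 (0.94 to 1.06). *Pecam1* itself was at 0.50 and *Cdh5* at 0.83 (0.74 to 0.92). The excess over *Cdh5* is therefore smaller, with *Gem* at 1.76 (1.68 to 1.83) and *Rrad* at 1.19 (1.13 to 1.26). These differences also use the values that chose the family. The part of cell composition in the RGK values was not tested further.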

How the data were processed

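RNA was extracted from 2 pooled samples of mesenteric artery, made into libraries after poly-T selection and sequenced by a commercial provider. Alignment by the authors was to mm9 with TopHat2. The deposited tables hold raw counts and FPKM values of the same reads per gene. The submitters' processing notes list TopHat2 2.0.12, HTSeq 0.6.1 and edgeR 3.0.8; the annotation is not given in the sources used here. The study's own test (DEGSeq, q-value under 0.005) was not used.

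The libraries held 10480918 (5 mM K+) and 11289598 (60 mM K+) reads on genes. Library factors came from edgeR 4.0.16 (TMM) and, as an alternative, DESeq2 1.42.0, under R 4.3.3. No model could be fitted across 1 library per condition. The log2(fold-change) used TMM-scaled counts, with a 0 set to 0.5 reads, and its 95% interval came from the Clopper-Pearson interval of the share of reads in the depolarized library. Intervals of CPM are exact Poisson intervals, and intervals of differences between 2 genes are normal approximations on the log scale. All cover counting error only. Counts of genes past a log2(fold-change) of 1 or -1 used genes whose reads summed to 10 or more. The interval was tested on simulated data drawn with counting error alone, so that test cannot speak to variation between arteries or mice.

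The members, the 7 other pathway lists and the 9 marker lists were chosen with earlier results of these data known. Named genes are the members, list genes past 1 or -1 (at most 5), the 3 with most FPKM in a list, and the 3 nearest genes of members with at least 50 reads. The remaining channel genes and single markers other than *Kdr* and *Cdh5* were named after their values were seen. Of 154 listed symbols, all matched, 2 through RefSeq synonyms (*Hras*, *Adgre1*). Protein sequences were not used here. The alternatives were other scalings, deposited FPKM with pseudocounts of 0.1 and 1, other filters, and gene lengths from the annotation.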

Additional observations from a re-analysis of the deposited data

How the results depend on the processing

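No paired analysis was possible because the control and the depolarized arm hold 1 library each, which also means that none could be left out. Of 78 alternative values, 35 stayed within counting error, within 0.1 (medians), within 1.5 times (counts) or close to the deposited level (levels per length), and 43 moved further. No value past 1 or -1 changed sign, whereas *Rem1* and the alpha2delta, partner and GTPase medians, all close to 0, turned negative with total counts and with FPKM; where a value moved beyond what its construction sets, the cause was not tested. With total counts, log2(fold-change) was 1.55 for *Gem* and 0.98 for *Rrad*, so that 1 RGK gene passed 1 in place of 2. With FPKM and a pseudocount of 0.1 or 1, also scaled by total counts, *Gem* was at 1.55 and 1.54 and *Rrad* at 0.98 and 0.98, again with 1 member above 1. Upper-quartile and median-of-ratios scaling kept *Gem* and *Rrad* above 1, and with no filter the count was 3, through *Rem2*. Total counts moved the medians to -0.93 (high voltage-activated pores), -0.44 (beta), -0.14 (alpha2delta), -1.37 (T-type), -0.016 (partners), -0.078 (other Ras-like GTPases) and 0.48 (early genes). With FPKM and a pseudocount of 1 they were -0.29 (pores), -0.10 (alpha2delta), -0.92 (T-type), -0.016 (partners), -0.077 (GTPases) and 0.47 (early genes), and with at least 100 reads the pore median was -0.24, without *Cacna1d*. Over all genes, 822 were above 1 and 869 below -1. Above 1 there were 497 and 240 genes with FPKM and a pseudocount of 0.1 or 1, 3081 with no filter, 329 with at least 100 reads and 263 by the nearest end of the interval. Below -1 there were 193 with FPKM and a pseudocount of 1, 2491 with no filter, 87 with at least 100 reads and 73 by the interval. Total counts gave 601 above 1 and 1285 below -1. Without length scaling, the ratio of RGK to beta subunit reads was 5.40 and 16.6 and that to *Cacna1c* reads 2.58 and 11.3. With annotated exon lengths the *Rrad* to *Gem* ratio was 2.35 and 1.59, and the levels were 185 and 365 for *Rrad*, 4.78 and 4.19 for *Rem1* and 0.157 for *Rem2*. The lengths and the *Cacna1c* ratio were chosen after seeing the data.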

Other observations

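*Tagln* (chromosome 9, 45737711 to 45744141), which encodes the smooth muscle protein transgelin, had 314 and 387 reads, or 31.0 and 35.5 FPKM, although *Cnn1* and *Des*, other smooth muscle genes, stood at 1352 and 2132 FPKM in the control. In GENCODE vM1 the annotated *Tagln* overlaps *Pcsk7*, and how reads in the overlap were counted is not given in the sources used here. *Myocd*, a coactivator of smooth muscle genes, at 1089 and 704 reads, was at a log2(fold-change) of -0.53 (-0.67 to -0.39), lower in the depolarized library like *Cacna1c*. All 4 genes were named after their values were seen, and no explanation was tested.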
